A study of Mus musculus with 12 samples.

Results

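The data described here are the comparison of renal cortex from ICGN and ICR mice at 8 weeks of age, which takes 6 of the 12 arrays of the study, 3 for each strain. The arrays were chosen by strain and age in their titles, and no measured value was used. ICGN mice are inbred, descend from ICR stock and are labelled with nephrotic syndrome. They are known to carry a defective Tns2 gene, which codes for the adaptor protein tensin 2. ICR mice are labelled normal, and no treatment is named for either strain. Cortex was separated from kidney slices kept in RNAlater, and total RNA from RNeasy columns was biotinylated and run on Affymetrix Mouse Genome 430 2.0 arrays. The labels do not give the sex of the mice or how many mice stand behind a replicate, so a p-value here reflects only how these samples spread, which may be technical. With 3 arrays a group the precision of every value is limited. ICGN and ICR differ at more loci than Tns2, so effects of the mutation, of the strain background and of the disease cannot be told apart in this design.

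The cortex consists mostly of proximal tubules, which take back filtered solutes and proteins, secrete organic ions and depend on mitochondrial respiration, together with glomeruli, distal tubule segments, vessels and sparse interstitial cells. In nephrotic syndrome the glomerular filter leaks plasma protein into the tubule lumen. Injured tubule cells are known to express keratins, vimentin, adhesion molecules and chemokines, and progressive disease brings macrophages and collagen into the interstitium. The comparison asks how the diseased cortex differs from the normal one at the older of the ages sampled.

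Signals are the deposited MAS5 intensities, brought to a common array median of 40.4, and are listed in the order of replicates 1 to 3. Differences are ICGN minus ICR on the log2(signal + 11) scale with the standard error of the fit, given relative to the median of the 12385 genes tested, which lay at -0.18. The limma test was run on the differences before that subtraction, so a gene at the median was tested at -0.18. Calls were made at a limma adjusted p of 0.05 or less, and only called genes are said to have risen or fallen, that is, to be higher or lower in ICGN. Deposited array medians were 108, 95.1 and 87.0 in ICGN and 83.0, 84.7 and 75.3 in ICR. Log2 values of arrays of the same strain correlated with r of at least 0.978 across genes, and those of different strains with at most 0.965, the highest of these being ICGN replicate 2 with ICR replicate 1. The 3' to 5' signal ratio of the Actb control probe sets was 1.57 to 1.64 in ICGN and 1.70 to 2.10 in ICR (p = 0.1 in a two-sided exact permutation test, the least that 3 arrays against 3 can give). Its part in the differences below was not tested.

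Tns2 was lower in every ICGN array, with signals of 114, 60.0 and 48.3 in ICGN and 337, 309.6 and 314 in ICR (log2 difference -1.85 ± 0.21, adjusted p = 1.1e-05). The groups were far apart, ICGN replicate 1 being the highest of its group. Across the genome 1052 genes rose and 3225 fell, 8.49% and 26% of the genes tested (34.5% in all). By size, 519 of the higher and 204 of the lower genes had changed by at least 1 on the log2 scale, and 77 and 18 by at least 2. The 3 arrays of one strain lay entirely above the 3 of the other in 5506 genes, or 44.5%. Most genes named below come from a naming rule that took only called genes with this separation. In those genes it was fixed by the choice and is no separate result.

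The balance of higher and lower calls depended on the scaling and on signal level, as the plot of the difference against the level shows. With the genes in 4 equal classes from dim to bright, the median difference before subtraction ran from -0.01 through -0.11 and -0.22 to -0.34, and the share of genes called lower ran from 6.39% to 47.7%. With quantile normalization, which gives all arrays the same distribution, 1698 genes (13.7%) were higher and 1669 (13.5%) lower, and 1031 of the 1052 and 1667 of the 3225 kept their call. With arrays centred on the tested genes 1497 (12.1%) were higher and 2641 (21.3%) lower, or 36.2% of calls higher against 24.6% by the median and 50.4% by quantiles, and 58.8% in the scaling as deposited (1858 higher, 1300 lower). List counts are given under quantile normalization as well wherever that moves a count of 2 or more by over 1.5 times. Every list count is to be read beside the 8.49% of all genes tested called higher and the 26% called lower.

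**Figure D1:**
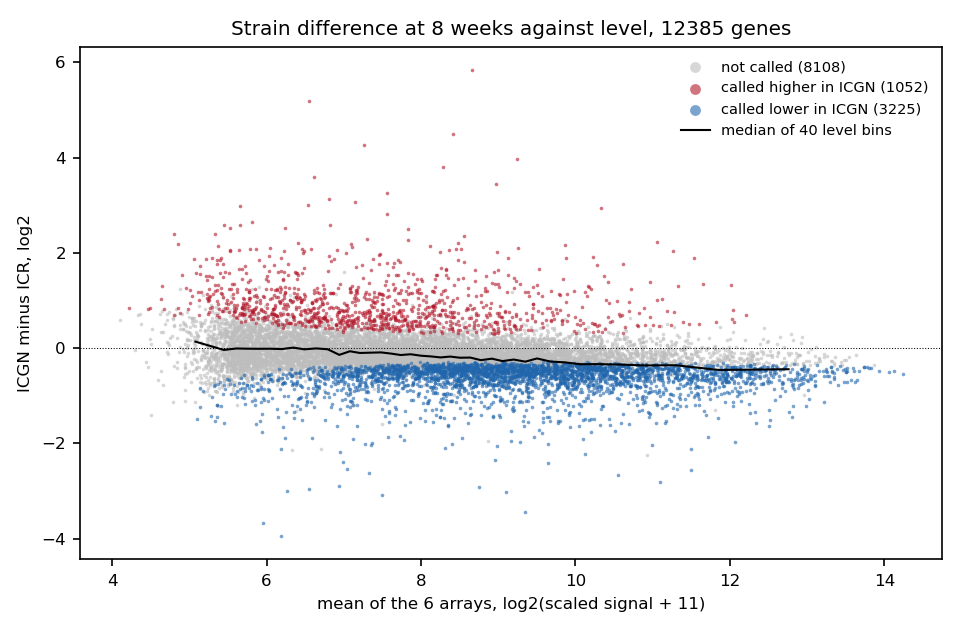
Strain difference (ICGN minus ICR, log2, before subtraction of the median gene) against the mean log2 level of the 6 arrays for the 12385 genes tested, 1 point a gene. Red points were called higher (1052) and blue points lower (3225); the black line, the median of 40 bins of level, falls below 0 as the level rises.

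Most class II antigen presentation genes rose. On the scale used here, with 11 added to each signal, H2-Ea had the largest difference of all genes tested, and with no offset that of Lcn2 was larger (8.04 against 7.15). Class II molecules display peptides on macrophages, dendritic cells and B cells, and kidney tubule cells can express them in inflammation. Their genes carry a conserved promoter module in which an X box, bound by the RFX complex, stands a short way upstream of a Y box with an inverted CCAAT core, bound by NF-Y, and the coactivator CIITA is recruited to this module. Interferon-stimulated genes carry instead an interferon-stimulated response element (ISRE), bound by IRF and STAT factors, and many chemokine genes a kappaB site as well. The 250 bases before the RefSeq start (GRCm38.p6) are shown for 3 class II genes and 2 interferon genes that rose, because the members of each group moved together in all 3 ICGN arrays. Capitals mark the matches found. In H2-Eb1, chr17:34305617-34305866 on the plus strand, they are an X box (AGNAACNGATG) and then a Y box (CTGATTGG), and in H2-Aa, chr17:34287824-34288073 on the minus strand, a Y box alone. In H2-DMb2, chr17:34144999-34145248 on the plus strand, they mark the bare core GATTGG. In Cxcl10, chr5:92348890-92349139 on the minus strand, they are an ISRE (GAAANNGAAA) and then a kappaB site (GGGANNNTCC), and in Gbp2, chr3:142620413-142620662 on the plus strand, an ISRE alone, read on the other strand.
H2-Eb1: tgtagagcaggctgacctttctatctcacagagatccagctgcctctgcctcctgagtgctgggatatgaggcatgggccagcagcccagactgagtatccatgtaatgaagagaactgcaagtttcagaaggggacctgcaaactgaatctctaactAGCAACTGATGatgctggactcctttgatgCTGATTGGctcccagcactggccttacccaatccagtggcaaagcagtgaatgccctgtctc
H2-Aa: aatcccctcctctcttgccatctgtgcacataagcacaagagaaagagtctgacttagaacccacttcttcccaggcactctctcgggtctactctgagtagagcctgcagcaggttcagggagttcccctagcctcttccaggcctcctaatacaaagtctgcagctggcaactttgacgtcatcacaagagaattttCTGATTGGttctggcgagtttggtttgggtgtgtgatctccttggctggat
H2-DMb2: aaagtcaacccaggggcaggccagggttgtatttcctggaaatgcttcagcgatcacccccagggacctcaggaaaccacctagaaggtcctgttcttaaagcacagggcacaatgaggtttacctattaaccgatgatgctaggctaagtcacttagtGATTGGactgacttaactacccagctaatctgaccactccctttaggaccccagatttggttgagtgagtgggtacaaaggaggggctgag
Cxcl10: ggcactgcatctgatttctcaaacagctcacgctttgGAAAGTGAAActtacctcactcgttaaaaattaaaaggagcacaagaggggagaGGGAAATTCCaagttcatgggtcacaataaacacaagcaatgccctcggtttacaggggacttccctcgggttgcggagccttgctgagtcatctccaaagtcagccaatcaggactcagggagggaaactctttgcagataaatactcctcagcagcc
Gbp2: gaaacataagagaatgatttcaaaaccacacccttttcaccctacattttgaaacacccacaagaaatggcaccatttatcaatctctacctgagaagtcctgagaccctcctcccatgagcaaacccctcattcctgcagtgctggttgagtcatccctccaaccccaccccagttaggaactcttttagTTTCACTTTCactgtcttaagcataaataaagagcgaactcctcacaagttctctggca

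Both strands were searched, and every Y box also holds the core GATTGG. In H2-Eb1 the X box spans the bases from 92 to 82 upstream of the start and the Y box those from 62 to 55, and in H2-Aa a Y box lies from 51 to 44 upstream with no X box of these letters. The core in H2-DMb2 lies from 91 to 86 upstream. Cxcl10 holds an ISRE from 213 to 204 and a kappaB site from 159 to 150 upstream, while Gbp2 holds an ISRE from 59 to 50 on the other strand and no kappaB match. Read on its own strand the ISRE of both genes is GAAAGTGAAA. Of all 32851 promoters of this length 0.259% hold the X box, 3.83% the Y box, 14.6% the core, 3.86% the kappaB site and 2.98% the ISRE. Among the 8 class II genes that rose 5 had a promoter in the table, of which 1 held the X box, 2 the Y box and 4 the core. Of 23 interferon response genes that rose 20 had a promoter and 8 of these (40%) held the ISRE, and of 18 innate sensing and NF-kB genes that rose 14 had one and 3 (21.4%) held the kappaB site. These matches describe letters in a window and were not tested as binding sites.

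H2-Eb1, a class II beta chain, read 2283, 1800.0 and 2668 in ICGN and 853, 455 and 1160.2 in ICR (log2 difference 1.70 ± 0.28, adjusted p = 9.9e-04). Cd74, the invariant chain that guides class II molecules through the cell, read 4686, 4347 and 6083 in ICGN and 1035, 1199.9 and 1389 in ICR (log2 difference 2.23 ± 0.24, adjusted p = 3.0e-05). In both genes every ICGN array lay above every ICR array, as the naming rule required, and ICGN replicate 2 was the lowest of its group. H2-DMb2, a subunit of the peptide editor H2-DM, read 302, 246 and 441 in ICGN and 30.5, 11.8 and 46.9 in ICR (3.31 ± 0.34), and H2-DMa read 478, 375 and 571 in ICGN and 169.9, 148 and 172 in ICR (1.64 ± 0.20). H2-Ea was bright in ICGN and uneven in ICR, at 2934, 2599 and 3663 in ICGN and 341, 22.6 and 1.91 in ICR (6.02 ± 0.83), the ICR arrays lying far apart on the log scale. H2-Ab1 rose (1.64 ± 0.24), as did Ctss, the cathepsin that degrades the invariant chain (2.34 ± 0.18). H2-Aa, at 1864, 1526 and 2409.9 in ICGN and 687, 1037 and 1341 in ICR, was called (log2 difference 1.12 ± 0.29, adjusted p = 0.0221) but lost the call when ICGN replicate 1, ICGN replicate 3 or ICR replicate 1 was left out (adjusted p of 0.0588, 0.0870 and 0.0936). Ciita, the class II coactivator, read 53.4, 41.6 and 48.0 in ICGN and 32.5, 21.3 and 36.2 in ICR and did not pass (log2 difference 0.72 ± 0.25, adjusted p = 0.114), although its groups do not overlap. In all, 8 of the 11 class II genes tested rose and 0 fell, with a list median of 1.64.

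Most interferon-stimulated and class I genes rose. Of 28 interferon response genes 23 rose and 0 fell (median 1.16), and of 13 class I genes 10 rose and 0 fell (median 0.89). Cxcl10, a chemokine induced by interferon, read 214, 278 and 368 in ICGN and 92.4, 31.9 and 47.2 in ICR (log2 difference 2.38 ± 0.28, adjusted p = 5.8e-05). Gbp2, a guanylate-binding GTPase, read 353, 357 and 553 in ICGN and 139.5, 110.0 and 206 in ICR (log2 difference 1.60 ± 0.22, adjusted p = 2.2e-04). Cxcl9 (2.04 ± 0.39), the GTPase gene Ifi47 (1.71 ± 0.22) and the interferon regulatory factor gene Irf7 (1.50 ± 0.24) rose as well. In class I the immunoproteasome subunit gene Psmb8 read 305, 289.7 and 462 in ICGN and 141, 116 and 149 in ICR (1.47 ± 0.19). The heavy chain gene H2-K1 read 4902, 5336 and 6535 in ICGN and 2449.9, 4409.6 and 2974 in ICR (0.99 ± 0.19). By array the interferon list median ran from -0.26, in replicate 2, to 0.10 in ICR and from 0.99 to 1.36 in ICGN, so the groups stayed apart. Ubd, a ubiquitin-like modifier induced by interferon and TNF, read 579, 559.8 and 889 in ICGN and 31.1, 16.1 and 25.9 in ICR (4.45 ± 0.43).

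Markers of macrophages and dendritic cells moved with these groups. Of 19 tested, 17 rose and 0 fell, with a median of 1.46, and their summed signal was 9031 to 11517 in ICGN and 4159 to 5549 in ICR. Mpeg1, perforin 2 of macrophages, read 720.1, 619 and 922 in ICGN and 179.6, 121 and 213 in ICR (2.27 ± 0.19). C1qa read 714, 498 and 841 in ICGN and 183, 162 and 187 in ICR (2.04 ± 0.19). Cx3cr1, the fractalkine receptor, read 190.1, 213 and 249.9 in ICGN and 87.8, 80.8 and 79.5 in ICR (1.46 ± 0.16). In these 3 genes the groups were well separated. Csf1r, the receptor of the macrophage growth factor CSF1 and a defining marker of the lineage, did not pass in any of its 3 probe sets and its groups overlapped, at 1870.2, 1776 and 2123 in ICGN and 1655, 2018 and 2725 in ICR (log2 difference 0.06 ± 0.16, adjusted p = 0.580). Adgre1, the macrophage marker F4/80 (1.32 ± 0.17), and Cd68, a lysosomal glycoprotein (1.43 ± 0.18), rose. Ms4a7 rose (2.17 ± 0.19) from ICR signals that lay below the array medians. As in every list of cell markers here, more cells of a type and more RNA per cell cannot be told apart in bulk tissue, and the part of these cells in the class II and interferon values was not tested. Lymphocyte and neutrophil markers were mostly too dim to test: Cd79a did not exceed 8.76 and Cd4 10.1 in any 8-week array. Of 6 lymphocyte and plasma cell genes tested 2 rose, Ptprc, the CD45 of all leukocytes (1.51 ± 0.17), and Thy1 (0.97 ± 0.20). The plasma cell genes Jchain, the joining chain of secreted antibodies (-2.22 ± 0.39), and Mzb1 (-0.79 ± 0.25) fell, Jchain reading 434, 277 and 319 in ICGN and 762, 3532 and 2292 in ICR. The T cell genes Cd3e (0.08 ± 0.34) and Cd8a (-0.12 ± 0.40) did not pass. Of 9 neutrophil genes named on the array 1 was tested, Ngp, which did not pass (-0.08 ± 0.24). The adrenal marker Cyp11a1 did not exceed 36.4, Star did not pass (0.48 ± 0.40), and the dim catecholamine enzyme gene Dbh was called lower (-0.84 ± 0.30), a call lost in the scaling as deposited. The red cell genes Alas2, of heme synthesis (-1.08 ± 0.19), and Slc4a1, the anion exchanger band 3 also found in the collecting duct (-0.27 ± 0.14), were called lower, that of Slc4a1 not under any other scaling.

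**Figure D2:**
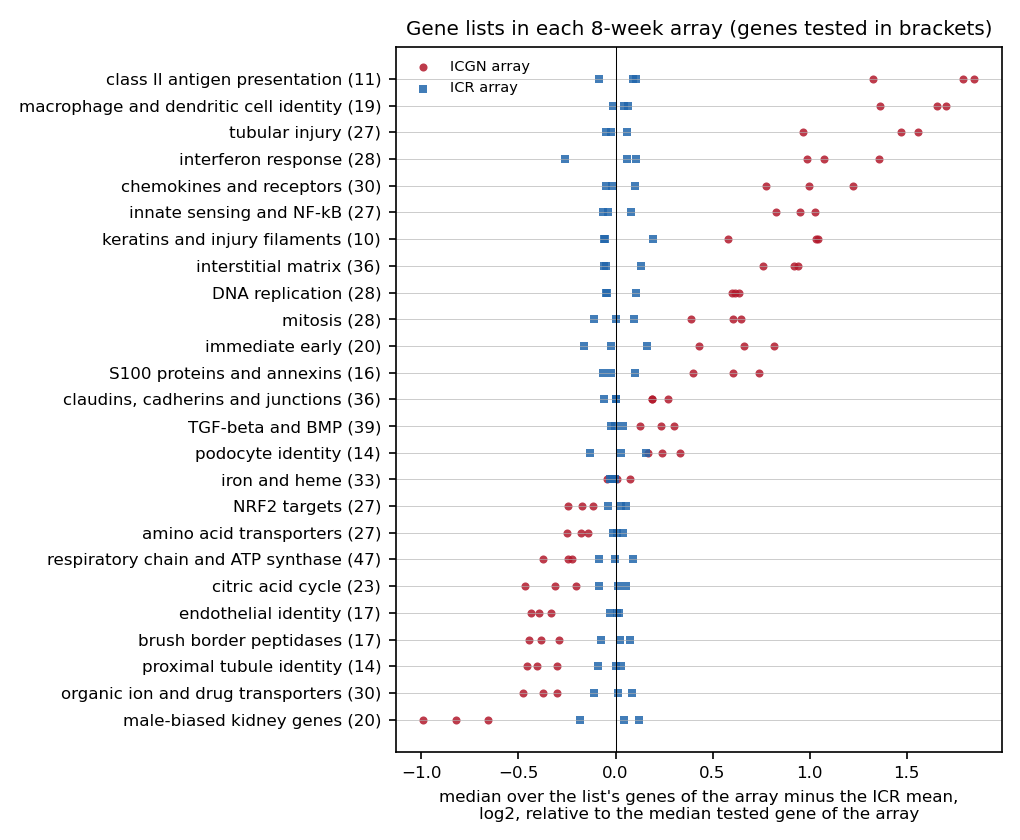
Median of each of 25 gene lists in each 8-week array, as the difference from the mean of the ICR arrays on the log2 scale and less each array's median over the tested genes; circles are ICGN arrays, squares ICR arrays, and the number of genes tested stands in brackets. From the class II to the junction list all ICGN arrays lie above all ICR arrays, and in the list of iron and heme genes the strains overlap.

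Chemokine and innate sensing genes rose more often than they fell. Of 30 chemokine and receptor genes 18 rose and 2 fell (median 1.01; 18 and 0 by quantiles), and of 27 innate sensing and NF-kB genes 18 rose and 0 fell (median 0.95). Ccl2, which attracts monocytes, read 296, 201 and 590.3 in ICGN and 24.2, 22.4 and 7.72 in ICR (3.78 ± 0.33). Cxcl2, which attracts neutrophils, read 73.5, 86.1 and 152 in ICGN and 11.5, 7.14 and 6.53 in ICR (2.70 ± 0.31). Ccl9 read 212, 183 and 248 in ICGN and 39.6, 46.0 and 67.4 in ICR (2.06 ± 0.24). All 3 were highest in ICGN replicate 3 and low in every ICR array. The receptor gene Tlr2 (2.24 ± 0.25) rose, and so did 2 feedback inhibitors of NF-kB, Tnfaip3, at 303, 316 and 441 in ICGN and 111, 88.3 and 98.9 in ICR (1.89 ± 0.15), and Nfkbie, at 249, 289.6 and 519.7 in ICGN and 81.7, 72.5 and 79.9 in ICR (2.14 ± 0.24). Among 33 cytokine and receptor genes 10 rose and 4 fell (median 0.35; 2 fell in the scaling as deposited), with Il1rn, the interleukin 1 receptor antagonist (1.64 ± 0.32), and Tnfsf13b, the B cell factor BAFF (1.43 ± 0.24), among the higher. Of 18 complement genes 8 rose and 2 fell. Cfi, the protease that inactivates C3b, read 397, 308 and 460.5 in ICGN and 128, 119 and 117 in ICR (1.76 ± 0.16). C1s1, the C1s protease, read 10.2, 1.61 and 12.9 in ICGN and 284, 247 and 292 in ICR (-3.75 ± 0.22). Of 20 coagulation genes 6 rose and 5 fell, the lower including Proc, the zymogen of protein C (-1.30 ± 0.20), and Serpinf2, the plasmin inhibitor (-1.35 ± 0.14). The share of lower coagulation genes is near the 26% of all genes tested, and 8.49% of all genes tested were higher.

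Of 27 genes of the injured tubule 19 rose and 0 fell, with a median of 1.37. Havcr1, kidney injury molecule 1, read 2068, 2157 and 3028 in ICGN and 58.6, 221 and 207 in ICR (4.16 ± 0.36). Lcn2, lipocalin 2, read 748, 362 and 639 in ICGN and 15.2, 0.968 and 0.976 in ICR (5.38 ± 0.32). Cd44, a hyaluronan receptor, read 497, 376 and 625 in ICGN and 67.7, 54.3 and 58.6 in ICR (log2 difference 3.00 ± 0.18, adjusted p = 1.6e-07). Clu, the chaperone clusterin, read 2269.7, 1826 and 2957 in ICGN and 521, 785 and 549 in ICR (log2 difference 2.09 ± 0.22, adjusted p = 2.4e-05). Vcam1, the adhesion molecule, read 1202, 1566 and 2351 in ICGN and 179.8, 125 and 123 in ICR (3.63 ± 0.27). The naming rule required that the arrays of the 2 strains not overlap in these 5 genes. ICGN replicate 2 was lowest of its group in Lcn2, Cd44 and Clu but not in Havcr1 or Vcam1. Ankrd1, a target of YAP in stressed epithelium and muscle, rose from ICR signals below the array medians (3.17 ± 0.36), and Aoc1, diamine oxidase, read 992, 1025 and 1509 in ICGN and 125, 50.7 and 57.1 in ICR (3.99 ± 0.36). Gdpd3, a lysophospholipase D, rose, at 1500.3, 1611 and 1732 in ICGN and 48.9, 82.6 and 56.4 in ICR (4.67 ± 0.31).

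Keratin and annexin genes rose more often than they fell. Of 10 keratin and filament genes 6 rose and 0 fell (median 0.92). Krt18 read 562, 549.8 and 731 in ICGN and 257, 198 and 187 in ICR (log2 difference 1.66 ± 0.19, adjusted p = 5.3e-05). Krt20 read 92.0, 55.3 and 202 in ICGN and at most 34.6 in ICR (1.91 ± 0.35). The mesenchymal filament gene Vim read 1463, 1439 and 1659 in ICGN and 765, 609 and 607 in ICR (log2 difference 1.38 ± 0.12, adjusted p = 6.8e-06). ICGN replicate 3 of Krt20 was far above the other arrays of its group, while the ICGN arrays of Vim lay close together. Of 16 S100 and annexin genes 8 rose and 1 fell (median 0.59). Anxa3 read 797, 774 and 1153 in ICGN and 298, 236 and 305 in ICR (1.83 ± 0.15). S100a6 read 1039, 1056 and 1163 in ICGN and 628, 458 and 379 in ICR (1.35 ± 0.23). Anxa2 read 1694, 1709.7 and 2374 in ICGN and 989.6, 852 and 968 in ICR (1.20 ± 0.14), with 1 of its 2 tested probe sets called higher. Anxa1 read 1323, 1328 and 1545 in ICGN and 696, 493 and 710.1 in ICR (1.33 ± 0.15). The exception was Anxa13, an annexin of polarised epithelia, at 101, 219 and 175 in ICGN and 528, 570.1 and 999 in ICR (log2 difference -1.83 ± 0.25, adjusted p = 4.0e-05).

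The junction list holds claudins, which seal or open tight junctions, and cadherins, which hold cells together. Of 36 tested, 10 rose and 5 fell (17 and 1 with quantile normalization), among them 5 of 15 claudins and 3 of 7 cadherins higher. Cldn1 read 629.7, 543 and 825 in ICGN and 203, 141 and 117 in ICR (log2 difference 2.24 ± 0.20, adjusted p = 6.9e-06). Cldn7 read 398, 297 and 538 in ICGN and 134, 164 and 94.2 in ICR (1.75 ± 0.20). Cldn4 read 552, 447 and 708 in ICGN and 189, 186 and 139 in ICR (1.84 ± 0.16). Cldn16, which makes the thick limb permeable to magnesium and calcium, rose too (0.90 ± 0.14). Cdh6, the cadherin of the early nephron, read 175, 129 and 215 in ICGN and 26.3, 38.3 and 32.1 in ICR (2.26 ± 0.23). Cdh11, a mesenchymal cadherin, read 700.3, 777 and 967 in ICGN and 303, 273 and 355 in ICR (1.54 ± 0.15). Cdh3, P-cadherin, read 69.5, 51.3 and 76.7 in ICGN and 16.1, 23.5 and 17.5 in ICR (1.53 ± 0.33). The ICR arrays of these cadherins lay close together and below all ICGN arrays, and for Cdh6 and Cdh3 they lay below their array medians. Gjb2, connexin 26, fell (-0.85 ± 0.15).

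Of 36 interstitial matrix genes 21 rose and 1 fell, with a median of 0.83. Mgp, matrix Gla protein, which binds calcium and BMPs, read 5421, 5182 and 6729.5 in ICGN and 1613, 1479 and 1512 in ICR (log2 difference 2.08 ± 0.12, adjusted p = 1.5e-07). Fn1, fibronectin, read 1889, 1708 and 1785 in ICGN and 821, 650.4 and 705 in ICR (1.48 ± 0.13). Col18a1, the collagen XVIII chain, read 1768, 1635 and 1974 in ICGN and 741, 719.9 and 736 in ICR (1.46 ± 0.12). In these 3 genes the arrays of a strain differed little from each other. Of 15 collagens 10 rose: Col8a1 (1.73 ± 0.22), Col12a1 (1.73 ± 0.18), Col1a1, at 495, 389 and 500.0 in ICGN and 215, 201 and 169.6 in ICR (1.38 ± 0.22), and Col3a1, at 2932, 3214 and 3393 in ICGN and 1609, 1476 and 1558 in ICR (1.22 ± 0.13), were among them. Matrix proteases and inhibitors were mixed (7 higher and 6 lower of 25, or 9 and 2 by quantiles), the lower share being near the 26% of all genes tested. Mmp14, the membrane-bound collagenase, rose (1.41 ± 0.19). Timp1, the metalloproteinase inhibitor, read 194, 151 and 171 in ICGN and 35.4, 34.0 and 30.7 in ICR (2.22 ± 0.30), and the protease inhibitor gene Pzp fell, at 373, 652 and 522 in ICGN and 1262, 3607 and 3005 in ICR (-2.04 ± 0.33). Of 31 basement membrane and integrin genes 6 rose and 2 fell (11 and 2 by quantiles), with Agrn, agrin, higher (1.01 ± 0.13) and Col4a3, a collagen chain of the glomerular basement membrane, lower (-0.67 ± 0.17).

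Growth factor genes moved in both directions. Of 28 genes of the insulin-like, fibroblast and platelet-derived growth factors 2 rose and 10 fell (3 and 5 by quantiles), and of 13 of the EGF family 1 rose and 3 fell (1 and 1). The EGF family counts are near the shares of all genes tested, 8.49% higher and 26% lower. Among 39 TGF-beta and BMP genes 9 rose and 5 fell (12 and 1 by quantiles), the higher members being 6 of 16 antagonists, activators and targets, 2 of 9 ligands and 1 of 14 receptors or transducers. Grem1, the BMP antagonist gremlin, read 82.3, 69.0 and 90.4 in ICGN and 26.5, 5.02 and 28.3 in ICR (1.85 ± 0.35). Sostdc1, an antagonist of BMP and Wnt in the distal tubule, read 1682, 1669.6 and 2090.4 in ICGN and 677, 668 and 944 in ICR (1.43 ± 0.16). Tgfbi, a matrix protein induced by TGF-beta, read 535, 514 and 699 in ICGN and 265, 164 and 193 in ICR (1.64 ± 0.17). Tgfb1 itself rose (0.71 ± 0.14). Egf, made in large amounts by the distal nephron, was the lowest member of its family, at 2238, 4381 and 2717 in ICGN and 8120.3, 8889.5 and 9875 in ICR (log2 difference -1.39 ± 0.19, adjusted p = 3.2e-05), ICGN replicate 2 being the highest of its group and still far below every ICR array. Igfbp1, a binding protein of insulin-like growth factors, rose, at 336, 747 and 625 in ICGN and 155, 182 and 145 in ICR (1.87 ± 0.30). Igfbp3 fell, at 954, 1499.7 and 1172 in ICGN and 3287, 3110.0 and 3404 in ICR (-1.27 ± 0.15). Fgf1, an acidic fibroblast growth factor of tubules, read 324, 402 and 365 in ICGN and 1096, 885 and 1277 in ICR (-1.36 ± 0.14). Vegfa, the endothelial growth factor, read 474, 516 and 492 in ICGN and 946, 762 and 841 in ICR (-0.58 ± 0.12).

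Of 17 endothelial genes 15 fell and 0 rose (median -0.38; 11 and 0 by quantiles, 5 and 0 in the scaling as deposited). Kdr, the main VEGF receptor, read 281, 313 and 265 in ICGN and 592, 667 and 661 in ICR (log2 difference -0.95 ± 0.11, adjusted p = 6.2e-06). Flt1, which binds VEGF as a decoy, read 195, 192 and 204 in ICGN and 365, 352 and 398 in ICR (log2 difference -0.69 ± 0.11, adjusted p = 6.3e-05). The strains did not approach each other in either, though only 2 of the 4 tested probe sets of Flt1 were called lower. Sox18, a transcription factor of vessels, fell as well (-0.82 ± 0.17). Pecam1, the adhesion molecule CD31, fell too (-0.43 ± 0.12) and lost the call in the scaling as deposited (adjusted p = 0.0531). Cdh5, VE-cadherin, was called (log2 difference -0.33 ± 0.17, adjusted p = 0.0314) but lost the call under each scaling other than the median and without any 1 of 5 arrays. The summed signal of the list was 5115 to 6054 in ICGN and 7971 to 9283 in ICR. Of 14 podocyte genes 2 rose (4 in the scaling as deposited) and 1, Actn4, was called lower, a direction that turned with quantile normalization. Cdkn1c, the cell cycle inhibitor of differentiated podocytes, read 451, 468 and 578 in ICGN and 294, 298 and 249 in ICR (0.99 ± 0.12). Synpo, the actin-binding synaptopodin, was called higher (log2 difference 0.62 ± 0.15, adjusted p = 0.0312), a call lost when any 1 of 4 arrays was left out, and Wt1, a podocyte transcription factor, did not pass (0.31 ± 0.23). Nphs1, nephrin of the slit diaphragm, read 115, 119 and 142 in ICGN and 135, 169 and 147 in ICR without passing (log2 difference -0.06 ± 0.14, adjusted p = 0.189). Of 12 mesangial and smooth muscle genes 4 rose and 1 fell (7 and 1 by quantiles), Cspg4, the pericyte proteoglycan NG2, being higher (1.05 ± 0.23) and Myh11, smooth muscle myosin, lower (-0.73 ± 0.17). Pdgfrb, a PDGF receptor of these cells, rose (0.76 ± 0.16), with its call lost without ICR replicate 2 (adjusted p = 0.0524). Pdgfra (log2 difference 0.61 ± 0.16, adjusted p = 0.0512) and the smooth muscle actin gene Acta2 (log2 difference 0.27 ± 0.11, adjusted p = 0.587) did not pass, but both did by quantiles. The call of Cspg4 was lost without ICR replicate 3 (adjusted p = 0.05005). For Cspg4 and for Pdgfrb 1 of 2 tested probe sets was called higher.

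Part of the proliferation genes rose. Of 28 DNA replication genes 14 rose and 1 fell (median 0.60), and of 28 mitosis genes 8 rose and 1 fell (median 0.60). Gins2, of the replicative helicase, read 86.2, 91.0 and 118 in ICGN and 24.2, 43.0 and 39.6 in ICR (log2 difference 1.43 ± 0.17, adjusted p = 1.1e-04). Uhrf1, which maintains DNA methylation, read 76.6, 122 and 108 in ICGN and 27.9, 30.9 and 54.1 in ICR (1.42 ± 0.19). Mki67 read 117, 109 and 137 in ICGN and 61.7, 49.1 and 79.1 in ICR (1.02 ± 0.15). The cytokinesis kinesin gene Kif23 read 44.7, 49.1 and 59.8 in ICGN and 6.31, 19.9 and 11.2 in ICR (1.62 ± 0.23). ICGN arrays lay above ICR arrays in all 4, as the naming rule required. The replication factor gene Mcm10 went against the list, at 87.1, 106 and 118 in ICGN and 245, 347 and 294 in ICR (-1.23 ± 0.16). Of 30 cell death and p53 genes 8 rose, 4 fell and 18 did not pass, while 8.49% of all genes tested rose and 26% fell. Cdkn1a, the cell cycle inhibitor p21 induced by p53, rose (1.23 ± 0.24), and so did another p53 target, Eda2r (1.31 ± 0.25). Bik, a proapoptotic BCL2 family gene, fell, at 19.0, 15.7 and 36.3 in ICGN and 265, 215 and 279 in ICR (-2.78 ± 0.24).

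**Figure D3:**
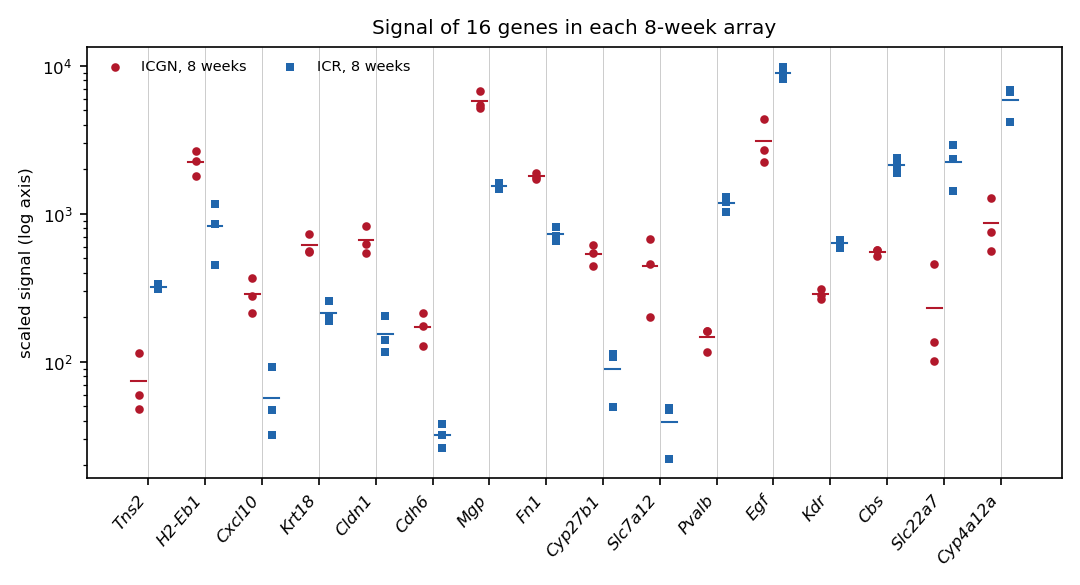
Scaled signal of 16 genes in each of the 3 ICGN arrays (circles) and the 3 ICR arrays (squares) at 8 weeks on a log axis; the short lines are group means. In each gene the 2 strains do not overlap, a condition under which most of the genes were named. Tns2, Slc22a7 and Cyp4a12a are among those lower in ICGN, and Mgp, Fn1 and Cyp27b1 among those higher.

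Of 20 immediate early genes 10 rose and 1 fell. The higher ones were led by Fos, at 228, 179 and 390.5 in ICGN and 32.4, 25.1 and 11.4 in ICR (3.19 ± 0.32), Egr1, at 956, 579 and 1072 in ICGN and 178, 125 and 165 in ICR (2.55 ± 0.24), and Atf3 (2.11 ± 0.39). Of 23 heat shock genes 2 rose and 10 fell (4 and 7 by quantiles), beside 8.49% and 26% of all genes tested. Hspa1a, the inducible HSP70, read 236, 339 and 323 in ICGN and 566, 638 and 1016 in ICR (-1.06 ± 0.22), and the small heat shock gene Hspb1 rose (0.93 ± 0.15). Dnajc18 fell (-2.36 ± 0.46), though ICGN replicate 2 stood apart from its group, at 16.4, 170.2 and 21.8 in ICGN and 288, 313 and 319 in ICR. Of 27 targets of NRF2, the regulator of antioxidant genes, 3 rose and 13 fell (5 and 5 by quantiles). Aldh1a1, retinaldehyde dehydrogenase, read 1063, 761 and 1518 in ICGN and 268, 304 and 268 in ICR (2.08 ± 0.38), whereas Gclc, the catalytic subunit that starts glutathione synthesis (-0.95 ± 0.20), and Osgin1, an oxidative stress-induced growth inhibitor (-1.29 ± 0.13), fell. In iron handling 6 rose and 8 fell of 33, beside 8.49% and 26% of all genes tested. Cp, the ferroxidase ceruloplasmin, read 3579, 3064 and 4165 in ICGN and 591, 389 and 408 in ICR (log2 difference 3.13 ± 0.19, adjusted p = 1.5e-07), with all 7 of its tested probe sets called higher. Tfrc, the transferrin receptor, read 540.4, 575 and 652 in ICGN and 1787, 1903 and 1831 in ICR (log2 difference -1.45 ± 0.13, adjusted p = 1.6e-06). The strains were far apart in both, and Slc11a2, the iron transporter DMT1, fell too (-0.96 ± 0.21).

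More transport genes of the proximal tubule fell than rose. Of 14 proximal tubule identity genes 10 fell and 0 rose (median -0.39; 5 and 0 by quantiles), and of 26 sugar, phosphate and anion transporters 12 fell and 0 rose (7 lower and 2 higher by quantiles). In the brightest of the 4 level classes 47.7% of all genes tested were called lower and 3.78% higher. The list counts were not set against genes of the same level. The summed signal of the identity genes was 58144 to 73044 in ICGN and 94846 to 107868 in ICR, against 7368 to 9323 in ICGN and 7875 to 8023 in ICR for markers of the inner medulla. Lrp2, the endocytic receptor megalin, was called lower (log2 difference -0.43 ± 0.19, adjusted p = 0.0233), a call lost by quantiles and without ICGN replicate 1 or ICR replicate 3, and its partner Cubn, cubilin, did not pass (log2 difference -0.26 ± 0.18, adjusted p = 0.0724). The medullary markers Aqp4 (0.31 ± 0.51), Slc14a2 (-0.12 ± 0.38) and Slc5a3 (-0.16 ± 0.16) did not pass. Slc5a2, the glucose cotransporter SGLT2, read 2919, 3652 and 3114 in ICGN and 6373, 5706 and 6238 in ICR (-0.74 ± 0.22). Slc34a3, a phosphate cotransporter, read 497, 687 and 499 in ICGN and 1003, 1169 and 1156 in ICR (-0.80 ± 0.19). Slc34a1, its relative, read 7274, 8752 and 8363 in ICGN and 11212, 12188 and 13157 in ICR (log2 difference -0.40 ± 0.12, adjusted p = 0.00205) and lost the call with quantile normalization (adjusted p = 0.0763). Of 19 organic ion uptake carriers 13 fell and 0 rose, with a median of -0.64. Slc22a7, the organic anion transporter OAT2, read 136, 459 and 101 in ICGN and 1422, 2937 and 2338 in ICR (log2 difference -3.26 ± 0.41, adjusted p = 3.1e-05). Slc22a6, OAT1, read 2038, 3332 and 2716 in ICGN and 5559, 5324 and 6601 in ICR (log2 difference -0.95 ± 0.16, adjusted p = 1.5e-04). Slco1a1, an anion transporting polypeptide, read 563, 1883 and 1509.7 in ICGN and 6407, 6829 and 7811 in ICR (log2 difference -2.38 ± 0.63, adjusted p = 0.00589). ICGN replicate 2 was the highest of its group for all 3, and in none did it reach the ICR arrays. Of 11 efflux pumps 4 rose and 5 fell, with Abcb1b, a P-glycoprotein, at 112, 96.2 and 147 in ICGN and 35.0, 25.6 and 31.1 in ICR (1.81 ± 0.26). Abcc4, MRP4, read 777, 696 and 1024 in ICGN and 388, 286 and 411 in ICR (1.36 ± 0.20).

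Amino acid transporters numbered 3 higher and 14 lower of 27 (4 and 6 by quantiles). The transporter gene Slc7a12 rose, at 679, 199.6 and 456 in ICGN and 47.1, 48.7 and 22.2 in ICR (log2 difference 3.25 ± 0.36, adjusted p = 3.2e-05). Slc7a13, the brush border cystine and aspartate carrier, fell, at 2557, 4900.1 and 3335 in ICGN and 8308, 10254 and 11389 in ICR (log2 difference -1.33 ± 0.21, adjusted p = 9.3e-05). Slc1a1, the acidic amino acid transporter EAAC1, fell as well (-0.74 ± 0.13). Among 17 brush border peptidases and partners 1 rose and 11 fell (4 and 8 by quantiles). Cndp1, carnosinase 1, read 434, 637 and 720.3 in ICGN and 4499, 3158 and 3773 in ICR (-2.48 ± 0.28). Ace, angiotensin-converting enzyme, read 187, 242 and 229 in ICGN and 339, 589 and 561 in ICR (-0.92 ± 0.19). Anpep, aminopeptidase N, read 104, 101 and 122 in ICGN and 244, 307 and 342 in ICR (-1.17 ± 0.13). Mme, neprilysin, was the exception, at 1203, 1173 and 1597 in ICGN and 721, 694 and 579.8 in ICR (1.16 ± 0.15). Of 40 endocytosis and lysosome genes 5 rose and 14 fell (11 and 9 by quantiles), shares near those of all genes tested (8.49% and 26%). The beta-glucuronidase gene Gusb fell (-1.29 ± 0.32) from uneven ICR signals of 615, 1350.5 and 2440.4.

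Many metabolic genes fell by small amounts, and in the brightest of the 4 level classes 47.7% of all genes tested were called lower. All 38 calls among 47 respiratory chain and ATP synthase genes were lower, with a median of -0.27, but 6 were lower with quantile normalization (median -0.02) and 14 in the scaling as deposited. Of 23 citric acid cycle genes 18 fell (9 by quantiles), and none rose under either. Some kept their call under each of these scalings. Ndufs1, of complex I, read 2078, 3026 and 2829 in ICGN and 3749.8, 4122 and 4777 in ICR (-0.50 ± 0.14). Pdha1, of pyruvate dehydrogenase, read 3816, 4859 and 4702 in ICGN and 7015, 7168 and 8101 in ICR (-0.56 ± 0.12). Pcx, pyruvate carboxylase, read 1086, 1476 and 1312 in ICGN and 2806, 2840.1 and 2775 in ICR (-0.94 ± 0.17). Amino acid metabolism held 4 higher and 19 lower of 40 (7 and 15 by quantiles). Cbs, cystathionine beta-synthase, read 519.7, 568 and 573 in ICGN and 1891, 2372 and 2120.1 in ICR (log2 difference -1.73 ± 0.14, adjusted p = 6.7e-07). Aspdh, aspartate dehydrogenase, read 162, 249.6 and 148 in ICGN and 1229, 1809.5 and 1667 in ICR (log2 difference -2.83 ± 0.25, adjusted p = 1.6e-06). Kynu, kynureninase, rose, at 244, 125 and 209.9 in ICGN and 50.3, 20.0 and 41.3 in ICR (2.27 ± 0.35).

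Lipid genes moved both ways. Fatty acid oxidation and peroxisome genes numbered 5 higher and 16 lower of 37 (9 and 9 by quantiles), with the acyl-CoA thioesterase gene Acot1 at 874, 578 and 988 in ICGN and 415, 239 and 333 in ICR (1.46 ± 0.26). Its relative Acot12 read 704, 916 and 1074 in ICGN and 2055, 3291 and 2766 in ICR (-1.39 ± 0.22). In cholesterol and lipid synthesis 4 rose and 10 fell of 25, beside 8.49% and 26% of all genes tested. Scd1, stearoyl-CoA desaturase, read 5172, 3425 and 5523 in ICGN and 926, 1479 and 671 in ICR (2.41 ± 0.31). Apoe read 3033, 2012 and 3884 in ICGN and 822, 921 and 777 in ICR (1.95 ± 0.19). Fasn, fatty acid synthase, read 183, 222 and 183 in ICGN and 441, 665 and 594 in ICR (-1.28 ± 0.15). Lpl, lipoprotein lipase, which fat cells also express, fell (-1.46 ± 0.23). Lpl is also a member of the adipocyte list, of which 2 of 5 tested genes, Lpl and Retn (-0.81 ± 0.27), fell (1 in the scaling as deposited) and whose summed signal was 4116 to 7360.5 in ICGN and 9685 to 17143 in ICR. Adipoq, made by fat cells, read 30.7, 269.9 and 84.9 in ICGN and 109.9, 523 and 471 in ICR and did not pass (log2 difference -1.41 ± 0.95, adjusted p = 0.206), nor did Fabp4, the fatty acid binding protein of fat (-0.35 ± 0.23). The part of fat tissue in the Lpl value was not tested.

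Cytochrome P450 genes changed both ways, 7 higher and 10 lower of 28 (9 and 4 by quantiles). Cyp4a14, a fatty acid hydroxylase, read 1016, 199 and 904 in ICGN and 37.0, 62.9 and 53.2 in ICR (log2 difference 3.44 ± 0.43, adjusted p = 7.1e-05). Its relative Cyp4a12a read 557, 1282 and 754 in ICGN and 4148, 6693 and 6897 in ICR (log2 difference -2.62 ± 0.45, adjusted p = 3.0e-04). Here too ICGN replicate 2 lay nearest to ICR in both. Conjugating enzymes and aldo-keto reductases numbered 4 higher and 15 lower of 39 (8 and 9 by quantiles), with the glutathione transferase gene Gsto1 higher, at 980.0, 790.3 and 1190.0 in ICGN and 374, 413 and 298 in ICR (1.60 ± 0.18), and Akr1c14 lower, at 1277, 2332 and 1811 in ICGN and 6361, 5923 and 6928 in ICR (-1.68 ± 0.23). Many P450, transporter and synthetase genes of the mouse kidney are known to depend on androgens. Of 20 genes known to be higher in male kidneys 16 fell and 0 rose (median -0.97; 12 and 0 by quantiles), among them Acsm3, a fatty acyl-CoA synthetase, at 1476, 3180.2 and 2153 in ICGN and 7071, 7947 and 10996 in ICR (-1.79 ± 0.38), with Cyp4a12a, Slco1a1, Slc7a13, Cyp2d9 and Serpinf2 described elsewhere. Of 10 genes known to be higher in female kidneys 2 rose, Slc7a12 and Cyp4a14, and 4 fell (2 by quantiles), Slc22a7 among these. The labels do not give the sex of the mice, and of 4 sex chromosome genes tested 0 were called in limma (adjusted p of 0.529 to 0.967; 0 at an unadjusted p under 0.05). The Y-linked gene Uty read 295, 391 and 421 in ICGN and 372, 318 and 419 in ICR. Another, Eif2s3y, read 354, 473 and 510.2 in ICGN and 461, 323 and 443 in ICR. Xist, which silences one X chromosome in females, read 45.6, 44.3 and 20.8 in ICGN and 45.6, 23.4 and 36.8 in ICR. Both Y-linked genes lay above the array median in every array of both strains, as did Kdm5d, a Y-linked demethylase gene.

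Vitamin D metabolism and phosphate handling held 2 higher and 7 lower of 17, beside 8.49% and 26% of all genes tested. Cyp27b1, which makes the active hormone, read 619, 445 and 542 in ICGN and 107, 112 and 49.9 in ICR (log2 difference 2.68 ± 0.29, adjusted p = 3.0e-05). Vdr, its receptor, read 612, 903 and 747 in ICGN and 1770.0, 1456 and 1672 in ICR (log2 difference -0.93 ± 0.15, adjusted p = 6.8e-05). The strains were widely apart in both. Kl, klotho, the coreceptor of FGF23, read 2489.5, 3971 and 3548 in ICGN and 4847, 5165 and 6577 in ICR (-0.56 ± 0.16), and its call was lost when its tested probe sets were averaged (adjusted p = 0.112). In the distal tubule Pvalb, the calcium buffer parvalbumin, read 116, 162 and 161 in ICGN and 1029, 1292 and 1208 in ICR (log2 difference -2.74 ± 0.18, adjusted p = 1.5e-07). Slc12a3, the thiazide-sensitive cotransporter of the same segment, read 555, 593 and 737 in ICGN and 1242, 1695 and 1429 in ICR (log2 difference -1.01 ± 0.18, adjusted p = 1.7e-04). Of 13 loop and distal tubule genes 1 rose and 8 fell, and of 12 collecting duct genes 0 rose and 2 fell (3 and 0 by quantiles). Umod, uromodulin of the thick limb, did not pass (log2 difference -0.06 ± 0.13, adjusted p = 0.148) and was called higher by quantiles, and its neighbour in that segment Slc12a1, the furosemide-sensitive cotransporter, did not pass either (0.20 ± 0.23), though it was called higher in the scaling as deposited. In the collecting duct Aqp3 was called lower (-0.54 ± 0.17), with 1 of its 3 tested probe sets called. It lost the call by quantiles (limma adjusted p = 0.0523). Aqp2, the water channel under vasopressin control (-0.05 ± 0.26), and Avpr2, the vasopressin receptor (0.19 ± 0.19), did not pass.

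Among 36 sodium, potassium and water handling genes 2 rose and 12 fell (4 and 6 by quantiles). These counts and the acid-base counts below stand beside 8.49% of all genes tested called higher and 26% called lower. Aqp11, an intracellular aquaporin of the proximal tubule, read 251, 329 and 301 in ICGN and 614, 575 and 621 in ICR (-0.83 ± 0.13). Hsd11b1, which regenerates active glucocorticoid, read 1609, 2089 and 2549.8 in ICGN and 2718, 8169.6 and 5951 in ICR (-1.13 ± 0.31). ICR replicate 1 lay close to ICGN for Hsd11b1. Acid-base genes numbered 3 higher and 9 lower of 27 (6 and 3 by quantiles): the membrane-bound carbonic anhydrase genes Car4 and Car15 moved apart. Car4 read 1194, 1961 and 1439 in ICGN and 3235, 3241 and 3980.4 in ICR (-1.02 ± 0.17). Car15 read 1670.2, 1481 and 1773 in ICGN and 725, 851 and 729 in ICR (1.27 ± 0.15). Atp6v0a4, a proton pump subunit of intercalated cells, fell (-1.23 ± 0.19).

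Some of the 15 genes with the lowest values have no place in these lists. Apobec2, a cytidine deaminase relative, read 9.71, 7.54 and 2.61 in ICGN and 189, 235 and 206 in ICR (-3.48 ± 0.36). Rbm45, an RNA-binding protein, read 34.3, 53.8 and 69.7 in ICGN and 439, 658 and 475 in ICR (-2.91 ± 0.47). Tc2n read 14.1, 27.6 and 9.71 in ICGN and 111, 245 and 311 in ICR (-2.81 ± 0.43). The C-type lectin gene Clec2h read 46.8, 45.2 and 42.0 in ICGN and 66.6, 387 and 788 in ICR (-2.20 ± 0.56). Gm10804, a gene model, read 59.5, 60.3 and 42.6 in ICGN and 328, 546 and 321 in ICR (-2.44 ± 0.20). ICR replicate 1 was the lowest of its group in Apobec2, Rbm45, Tc2n and Clec2h, and stood far below its fellows in Clec2h.

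**Figure D4:**
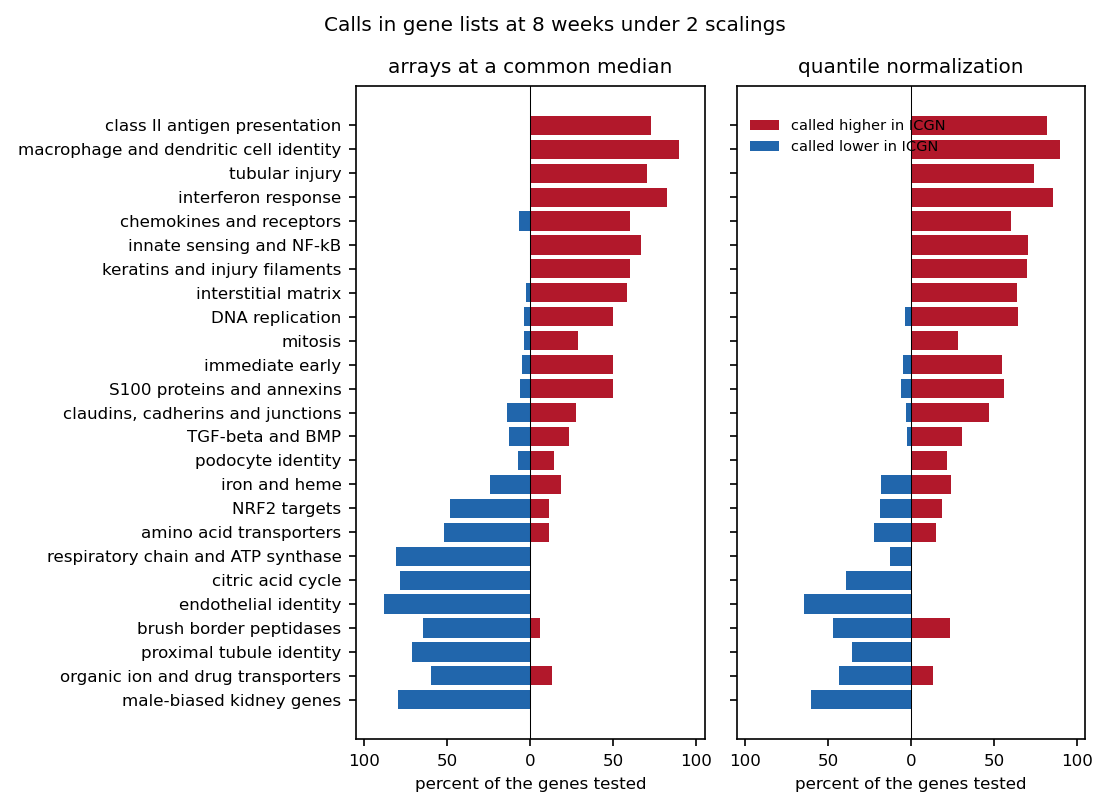
Share of the genes tested in each of 25 lists that were called higher (red, to the right) or lower (blue, to the left) in ICGN at 8 weeks, with arrays at a common median and after quantile normalization. The higher shares of the inflammatory, injury and matrix lists differ little between the panels, while the lower share of the respiratory chain falls from 38 to 6 of 47 genes.

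The 8-week difference was set against that at 4 weeks, the most similar comparison in the study, by testing the difference between them (the interaction). At 4 weeks 198 genes were higher (1.6%) and 172 lower (1.39%). Of these, 124 and 120 were called the same way at 8 weeks, which is 62.6% of the higher and 69.8% of the lower genes of the younger age but 11.8% and 3.72% of those of the older. The ages differed in 978 genes (7.9%), the value at 8 weeks being above that at 4 weeks in 274 (2.21%) and below it in 704 (5.68%). Leaving out ICGN replicate 1 or ICR replicate 3 reduced the 978 to 561 or 598.

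Among the lists the matrix genes held the most in which ICGN minus ICR was higher at 8 weeks, 19 of 36. At 4 weeks 2 of the 36 were called higher and 2 lower. Injury genes were next by this count, with 11 of 27. Mgp stood at 0.48 at 4 weeks, Fn1 at 0.41, Col1a1 at -0.40 and Cdh11 at -0.33, the latter pair lying below 0 without passing. Mean signals at 4 and 8 weeks were 2518 and 1794 in ICGN and 1933 and 725 in ICR for Fn1. For Col1a1 they were 659.6 and 461 in ICGN and 929 and 195 in ICR, so both strains were lower at 8 weeks. Mgp read 3081 and 5777 in ICGN and 2230.4 and 1535 in ICR, and Cdh11 553 and 815 in ICGN and 711 and 310.5 in ICR. By contrast Tns2 (-1.94 at 4 weeks), Havcr1 (3.64), C1s1 (-3.94) and Tfrc (-1.53) had differences at 4 weeks that were not shown to be unlike those at 8 weeks. The interaction for Tns2 was 0.09 (adjusted p = 0.887) and for C1s1 0.19 (adjusted p = 0.9704). It was 0.53 (adjusted p = 0.683) for Havcr1 and for Tfrc 0.09 (adjusted p = 0.800).

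**Figure D5:**
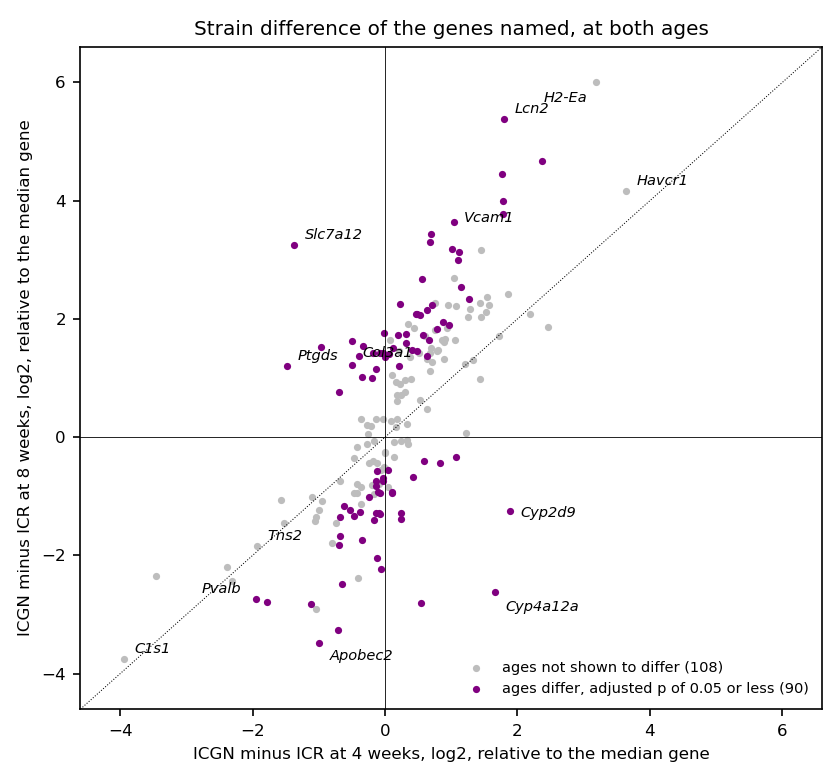
Strain difference at 8 weeks against that at 4 weeks, log2 and relative to the median gene, for the 198 genes named in the text; purple points are the 90 whose ages differed at an adjusted p of 0.05 or less, and the dotted line marks equal differences. Tns2, C1s1 and Havcr1 lie near the line, Lcn2 and Vcam1 far above it, and Cyp4a12a and Cyp2d9 change side.

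Only 7 of the 12385 genes tested were called in opposite directions at the 2 ages. Col3a1, Ptgds and Phgdh were lower in ICGN at 4 weeks and higher at 8 weeks. Ptgds, prostaglandin D synthase, read 139, 161 and 228 in ICGN and 626, 442 and 472 in ICR at 4 weeks (-1.48 ± 0.22) and 452, 307 and 558 in ICGN and 203, 245 and 173 in ICR at 8 weeks (1.20 ± 0.22). Phgdh, the first enzyme of serine synthesis, read 709, 666 and 884 in ICGN and 1143, 1147 and 1416 in ICR at 4 weeks (-0.69 ± 0.13) and 456, 493 and 559 in ICGN and 319, 324 and 351 in ICR at 8 weeks (0.77 ± 0.13). It was read from a probe set with an _x_at suffix, and 2 of its 4 tested probe sets were called higher at 8 weeks. For Col3a1 the 4-week signals were 3613, 3250.0 and 3162 in ICGN and 4448, 5820.1 and 4212 in ICR (-0.50 ± 0.13). Cyp2d9, a male-biased P450, went the other way, at 188, 244 and 328 in ICGN and 43.8, 55.5 and 86.8 in ICR at 4 weeks (1.88 ± 0.28) and 488, 381 and 558 in ICGN and 799.6, 1925 and 1393 in ICR at 8 weeks (-1.25 ± 0.28). The groups of these 4 genes do not overlap at either age. The remaining 3, 4931408D14Rik (0.83 ± 0.13 at 4 weeks and -0.43 ± 0.13 at 8 weeks), Fam214a (0.58 ± 0.14 and -0.40 ± 0.14) and Rhebl1 (1.07 ± 0.17 and -0.34 ± 0.17), had small values at 8 weeks. Their 8-week calls were lost in the scaling as deposited (adjusted p of 0.0751, 0.0962 and 0.206), that of Fam214a also with probe sets averaged, and that of Rhebl1 also with arrays centred on the tested genes (adjusted p = 0.0665), with no filter (adjusted p = 0.0518) and when any of 4 single arrays was left out.

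The arrays of a strain were not alike in how far they stood from the other strain. Among the 519 genes that rose by at least 1 on the log2 scale ICGN replicate 2 was the nearest to ICR in 291 (56.1%), replicate 1 in 203 (39.1%) and replicate 3 in 25 (4.82%). Among the 204 that fell as much it was replicate 2 in 121 (59.3%), replicate 3 in 68 (33.3%) and replicate 1 in 15 (7.35%). With quantile normalization replicate 2 was nearest in 340 and 130, so its place did not rest on this scaling. The order of the other two did: for the higher genes the 203 and 25 of replicates 1 and 3 became 122 and 57 by quantiles and 19.3% and 14.5% of the genes with arrays centred on the tested genes. For the lower genes the 15 and 68 became 31 and 43 by quantiles. On the ICR side replicate 1 was nearest to ICGN in 142 of the 204 lower genes (69.6%), but in 211 of the 519 higher genes (40.7%), close to the 207 of replicate 3 (237 and 176 by quantiles). The median SD over genes was 0.19 in ICGN and 0.18 in ICR on the log2 scale. These orders describe single samples and were not tested.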

How the data were processed

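The deposited values are signal intensities per probe set that the authors made with MAS5, per the submitters' processing notes. Its version was not given in the sources used here. Each deposited array had a trimmed mean (2% at each end) of 500.003. For this report the 12 arrays were brought to a common median, 11 (the 25th percentile of the scaled table) was added and log2 taken. Probe sets above their own array median in at least 3 arrays were tested; names came from the platform annotation (34945 of 45101 probe sets with 1 symbol, 932 with several, 9224 with none), and each gene was read from its tested probe set of highest mean signal, those with an _x_at suffix only where no other was tested. Probe sets of close relatives (Cyp4a12a, Cyp2d9, H2-K1, Acot1, Hspa1a) may read more than 1 gene.

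The 4 group means over all 12 arrays were fitted with limma 3.58.1 (lmFit, eBayes with trend; R 4.3.3), with Benjamini-Hochberg adjustment over 12385 genes. On simulated data 85% of genes changed by log2 1 and 97% of those changed by 2 were recovered, with 10 false calls. The simulation changed 100 genes by each amount and held no shift of scaling or level between arrays. Its false calls therefore do not measure errors that come from the scaling. Members and gene lists were chosen with earlier results of these data known. The genes named include Tns2, the 15 highest and 15 lowest called genes and the first 3 measured markers of each identity list. The rest were taken from up to 6 called members of each of 64 lists. For the 15 highest, the 15 lowest and the list members, the arrays of the 2 strains had to be non-overlapping. All 3 arrays of the higher group also had to lie above their array medians. Outside this rule 16 of the 198 were chosen after their values were seen: H2-Aa, H2-Ab1, Ciita, Gjb2, Col1a1, Col3a1, Tgfb1, Cx3cr1, Ptgds, 4931408D14Rik, Fam214a, Rhebl1, Uty, Eif2s3y, Kdm5d and Xist. Alternatives were the offset, scaling, filter, arrays in the fit, variance trend, probe sets averaged, a replicate block and leaving out each array.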

Additional observations from a re-analysis of the deposited data

Results flagged for a closer look

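Of the 198 genes named, 90 had a strain difference at 8 weeks unlike that at 4 weeks (interaction test in limma, adjusted p of 0.05 or less), against 7.9% of all genes tested. The value given is the difference at 8 weeks minus that at 4 weeks, log2 and relative to the median gene. A positive number means that ICGN minus ICR was higher at the older age, not that the ICGN signal rose with age. For Slc7a12, at 4.63, mean signals at 4 and 8 weeks were 1011 and 445 in ICGN and 2557 and 39.3 in ICR. Among inflammatory genes the value was 2.70 for Ubd, 2.64 for H2-DMb2, 2.01 for Ccl2, 1.54 for Ccl9, 1.52 for Nfkbie, 1.39 for Irf7, 1.08 for Ctss, 0.93 for Tnfaip3, 1.78 for Cfi and -2.16 for Jchain. In injury, filament and annexin genes it was 3.59 for Lcn2, 2.60 for Vcam1, 1.91 for Cd44, 1.62 for Clu, 0.76 for Vim, 1.35 for S100a6, 1.06 for Anxa3, 1.00 for Anxa2, -1.13 for Anxa13, 2.30 for Gdpd3 and 2.21 for Aoc1. In junction and matrix genes it was 2.51 for Cdh3, 2.04 for Cdh6, 1.87 for Cdh11, 1.53 for Cldn1, 1.44 for Cldn7, 1.78 for Col1a1, 1.72 for Col3a1, 1.54 for Col8a1, 1.60 for Mgp, 1.36 for Mmp14, 1.21 for Agrn, 1.16 for Col12a1, 1.08 for Fn1, 0.98 for Col18a1, 0.98 for Tgfbi, -1.08 for Col4a3 and -1.92 for Pzp. In proliferation, death and immediate early genes it was 2.19 for Fos, 1.40 for Egr1, 2.13 for Kif23, 1.61 for Uhrf1, 1.47 for Gins2, 1.38 for Mki67, -0.69 for Mcm10 and -0.99 for Bik. In growth factor, vessel and clotting genes it was 1.51 for Sostdc1, -0.45 for Vegfa, -0.66 for Flt1, -1.04 for Kdr, -0.69 for Myh11, -0.88 for Igfbp3, -1.22 for Egf, -0.66 for Serpinf2 and -1.21 for Proc. In transporter, tubule and brush border genes it was 4.63 for Slc7a12, -0.59 for Slc1a1, -0.85 for Slc7a13, -0.86 for Slc22a6, -2.53 for Slc22a7, -0.69 for Aqp11, -0.78 for Car4, -0.78 for Pvalb, 1.30 for Mme, -0.54 for Anpep, -0.80 for Ace, -1.83 for Cndp1 and -1.52 for Gusb. In cytochrome, vitamin D, iron and metabolic genes it was 2.75 for Cyp4a14, 2.13 for Cyp27b1, -1.03 for Vdr, -4.29 for Cyp4a12a, -3.13 for Cyp2d9, 2.02 for Cp, 1.29 for Gsto1, -0.99 for Akr1c14, 1.46 for Phgdh, -1.38 for Cbs, -1.71 for Aspdh, -0.59 for Pdha1, -1.63 for Acot12, -1.14 for Fasn, 1.07 for Apoe and -1.20 for Osgin1. In the other genes it was 2.69 for Ptgds, -0.97 for Fam214a, -1.25 for 4931408D14Rik, -1.41 for Rhebl1, -2.48 for Apobec2 and -3.35 for Tc2n. The named genes were chosen mostly for large 8-week differences, so their share is no estimate for other genes.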

How the results depend on the processing

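Scaling set the number of calls. Quantile normalization gave 1698 genes higher and 1669 lower, and the scaling as deposited 1858 and 1300, against 1052 and 3225. A filter at the 75th percentile of each array gave 562 higher among 7598 genes tested, fewer genes by its construction. Leaving out 1 array gave 745 to 1027 genes higher and 2103 to 3507 lower, with 2105 lower without ICGN replicate 1 and 2103 without ICR replicate 3, and 561 to 1061 genes whose ages differed, with 561 and 598 without the same arrays. No gene called higher was called lower, or the reverse, under any alternative except 2 lower genes that were called higher when probe sets were averaged. Tns2 kept its direction and call under every alternative run.

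Changes of direction without a call were followed only for the genes of the naming rule and those in the text. Among these, 4 called genes turned direction without passing. Actn4 stood at 0.0449 with quantile normalization, and with probe sets averaged Dlst stood at 0.0378, H2-D1 at -0.46 and Tef at 0.0731. The causes were not tested.

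Over all genes, deviations of ICGN and ICR arrays with the same replicate number correlated at 0.010, -0.070 and 0.097. Those with unlike numbers correlated at -0.166 to 0.150. Such a correlation over all genes cannot exclude that arrays of the same number share deviations in single genes. With the number as a block 1039 genes were higher, 3386 lower and 1208 unlike between the ages, against 1052, 3225 and 978 without it. Adipoq then passed the limma test (adjusted p = 0.00076), as did Fabp4 (adjusted p = 0.00403) and Cubn (adjusted p = 0.0233), while Synpo lost its call (adjusted p = 0.0507).

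Values below the array median are weakly measured, and sizes and ranks of change from such levels (H2-Ea, Lcn2, Ubd, Ankrd1, Ccl2, Fos, C1s1, Apobec2, Tc2n, Bik) depend on the offset of 11. With 3 arrays a group, small differences may be missed.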

Other observations

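Several lists were not described in the comparisons above. Of 23 glycolysis and gluconeogenesis genes 2 were called higher and 12 lower (3 and 5 with quantile normalization), and of 18 hypoxia genes 2 and 8 (3 and 4). Of 31 targets of ATF4 and the endoplasmic reticulum stress response 4 were higher and 6 lower (8 and 2), which turns the balance with the scaling. Of 16 circadian clock genes 0 were higher and 5 lower (1 and 3), of 30 Wnt and Notch genes 3 and 4 (6 and 2), of 22 kidney transcription factors 0 and 5 (2 and 3), and of 9 genes of the renin-angiotensin and kallikrein systems 2 and 1 (5 and 1). These shares stand beside 8.49% of all genes tested called higher and 26% called lower.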
